A study of Mus musculus with 6 samples.

Results

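The genes described here encode part of the translation initiation factors eIF1 to eIF6 and of the elongation factors eEF1 and eEF2. Enzymes and binding proteins that carry their names are included. Members were all genes whose array row was annotated with exactly 1 symbol starting with Eif1 to Eif6, Eef1 or Eef2. Symbols starting with Eif2ak (the eIF2 kinases) or Eif2s3 were left out, and of several rows of one gene the one with the greatest mean signal was kept. This gave 43 genes out of 14860 measured genes. Another 8 rows with several symbols held a factor symbol and named no gene. Of the paralogues fixed for display, Eef1a1, Eif4a1, Eif4a2, Eif4ebp1, Eif4ebp3, Eif4g1 and Eif5a had no row under the rule and were not analysed here. Eif1, Eif2s1, Eif2b3, Eif3g, Eif3j, Eif3m, Eif6 and Eef1g are also not among the members. The study profiled ventricles of 6 male wild-type C57BL/6 mice on exon arrays, 1 mouse per array. In 2 mice the transverse aorta had been constricted for 1 week (1 W TAC) and in 2 mice for 4 weeks (4 W TAC), which raises the pressure load on the left ventricle. The other 2 mice had a sham operation without constriction (Sham), and their arrays were the controls of both TAC groups, so the 2 comparisons with Sham are not independent of each other. The sources used here give neither the age of the mice nor the time from sham operation to tissue collection. All values are log2 signals of 1 gene on 1 array, and log2 ratios were taken between the means of 2 groups.

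Translation starts when eIF2 with GTP brings the initiator tRNA to the small ribosomal subunit, which eIF1, eIF1A, eIF3 and eIF5 help to assemble and to scan for a start codon. The cap-binding protein eIF4E, the scaffold eIF4G and the helicase eIF4A bring the mRNA, and eIF5B joins the large subunit. Then eEF1A delivers aminoacyl-tRNAs and eEF2 moves the ribosome along the mRNA. In the heart, growth of myocytes under pressure load depends on protein synthesis. Much of the control acts on these proteins by phosphorylation (eIF2, the 4E-BPs, eEF2), which arrays of mRNA do not measure.

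The median signal of all genes lay between 5.85 and 6.04 on the 6 arrays, and the members spanned signals from 3.44 to 11.93. The mean signal was under 6 for 5 members (Eif4b, Eef1akmt2, Eef1aknmt, Eef1d and Eif5a2). Markers of ventricular myocytes (Tnnt2, Actn2, Ryr2, Myl2, Pln) were among the bright rows on every array, with a linear signal, summed over the 5 measured of 8 listed markers, of 32566 to 33872 in Sham, 29121 to 29531 at 1 W TAC and 31383 to 32295 at 4 W TAC. The summed signal of 8 fibroblast markers was 5327 to 5686 in Sham, 18219 to 23350 at 1 W TAC and 9303 to 11874 at 4 W TAC, and all 8 markers lay above Sham without overlap at both times. The 8 macrophage markers summed to 1001 to 1051, 2555 to 3563 and 1148 to 1559 in the same order, and the 3 measured markers of dividing cells to 76.4 to 81.0, 129 to 275 and 76.6 to 101. Ucp1, the uncoupling protein of brown fat, read 8.21 in Sham replicate 1 and 6.35 in 4 W TAC replicate 1, against 3.96 to 4.40 on the other 4 arrays, and the 4 adipocyte markers summed to 261 to 606 in Sham, 244 to 281 at 1 W TAC and 256 to 401 at 4 W TAC. In bulk ventricle, fewer cells of a type and less RNA per cell cannot be told apart, and the part of these cell types in the values below was not tested.

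The translation factor mRNAs differed little between the groups. No member passed an adjusted p under 0.05 in limma (Benjamini-Hochberg over 23332 rows) in any of the 3 comparisons, where the threshold was passed by 0.00429% of rows for 1 W TAC against Sham, by 0% for 4 W TAC against Sham and by 0% for 4 W TAC against 1 W TAC. At an unadjusted limma p under 0.05, 2 members were lower at 1 W TAC and 0 were higher, where 4.87% of all genes were lower and 7.16% higher. At 4 W TAC, 0 members reached it in either direction, where 1.39% of all genes were lower and 2.42% higher. For splicing factors the study used a fold over 1.5 with an unadjusted p under 0.05 in a 2-group test on data of 1 W TAC. It also required the same direction across data sets, which was not applied here. The fold and p threshold was passed by 1 member at 1 week and 0 at 4 weeks of TAC, beside 3.55% and 1.4% of rows. It was passed by 1 member for 4 W TAC against 1 W TAC, beside 1.52%. After Benjamini-Hochberg adjustment of that test 0 members passed. Without overlap of the 2 groups, 5 members (11.6%) lay above Sham and 8 (18.6%) below at 1 W TAC, beside 22.1% and 20.4% of all genes. At 4 W TAC, 4 members (9.3%) lay above and 3 (6.98%) below, beside 17.3% and 12.9%. These shares of the members were below or near those of all genes in each case. The log2 ratios of the members ran from -0.86 to 0.30 at 1 W TAC (median -0.09). They ran from -0.38 to 0.86 at 4 W TAC (median 0.05), where the medians over all genes were 0.01 and 0.04. Only 2 members at 1 week and 1 member at 4 weeks had a log2 ratio beyond 0.5 in size (4.7% and 2.3%), against 14.1% and 5.9% of all genes. The sign of the member median rested on single arrays. The median at 1 W TAC was 0.075 without Sham replicate 1 and 0.035 without 1 W TAC replicate 1, and that at 4 W TAC was -0.105 without Sham replicate 2 and -0.035 without 4 W TAC replicate 2.

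**Figure D1:**
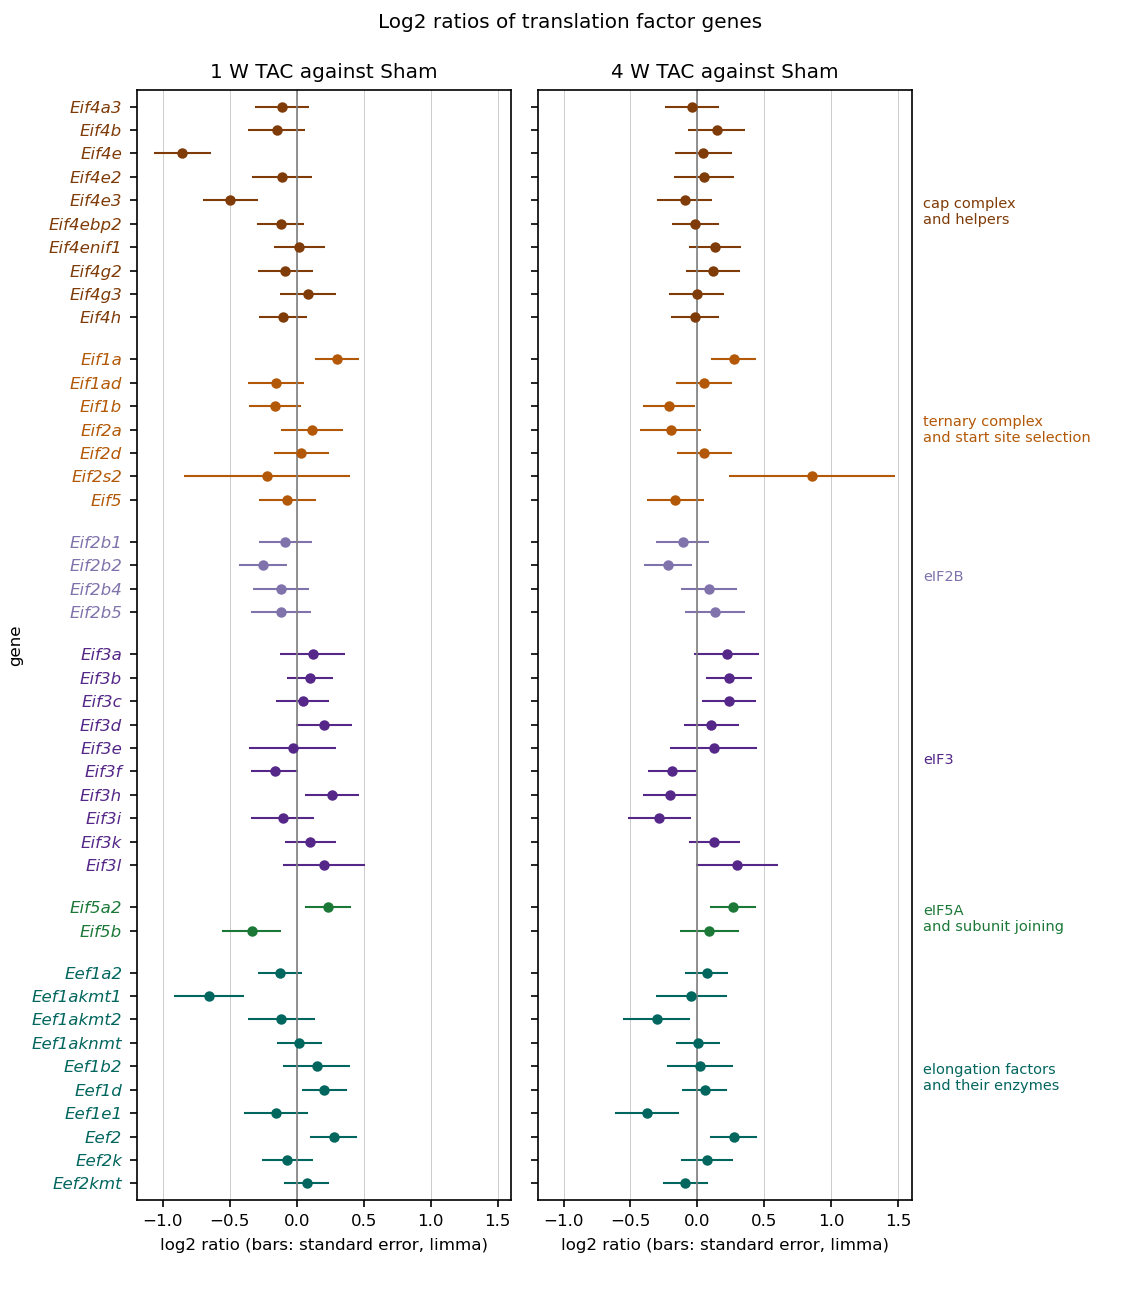
Log2 ratios of the 43 translation factor genes at 1 W TAC (left) and 4 W TAC (right) against Sham, with 2 arrays per group; points are differences of group means, bars are standard errors from limma, and colours mark the roles named at the right. Most points lie within 0.3 of 0 on both sides, with Eif4e (-0.86), Eef1akmt1 (-0.66) and Eif4e3 (-0.50) lowest at 1 W TAC and Eif2s2 (0.86, with the widest bar) highest at 4 W TAC.

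The cap complex held the member with the largest log2 ratio at 1 W TAC. Eif4e, which encodes the subunit that binds the mRNA cap, read 7.08 and 6.75 in Sham, 6.00 and 6.12 at 1 W TAC and 6.78 and 7.14 at 4 W TAC. Both 1 W TAC arrays lay below the other 4 arrays, and the 4 W TAC arrays lay within or next to the Sham range. The log2 ratio was -0.86 ± 0.21 (SE) at 1 W TAC, 0.553-fold, with an unadjusted p of 0.00766 and an adjusted p of 0.253 in limma, and 0.05 ± 0.21 at 4 W TAC (adjusted p = 0.995). Only 1.2% of all genes had a lower log2 ratio at 1 W TAC. Eif4e3, a cap-binding relative of Eif4e, read 7.88 and 7.47 in Sham, 7.09 and 7.27 at 1 W TAC and 7.65 and 7.51 at 4 W TAC. Its 1 W TAC arrays were again the lowest of the 6, with a log2 ratio of -0.50 ± 0.21 (adjusted p = 0.453) that was -0.29 without Sham replicate 1, while the 4 W TAC arrays lay inside the Sham range (-0.10 ± 0.21, adjusted p = 0.987). The third cap-binding gene, Eif4e2, whose protein binds the cap without recruiting eIF4G and represses translation, read 6.79 and 6.45 in Sham, 6.36 and 6.66 at 1 W TAC and 6.51 and 6.83 at 4 W TAC. Its groups overlapped at both times, with log2 ratios of -0.11 ± 0.22 and 0.05 ± 0.22. 

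The other genes around the cap showed smaller differences. Eif4ebp2, which encodes an eIF4E-binding repressor, read 8.23 and 7.96 in Sham, 7.97 and 7.98 at 1 W TAC and 8.16 and 8.0 at 4 W TAC, so that all TAC values lay inside the Sham range. The scaffold gene Eif4g3 read 8.36 and 8.17, 8.26 and 8.44, and 8.46 and 8.06 in the same order of groups, and its relative Eif4g2, whose protein lacks the part that binds eIF4E, read 11.27 and 11.07, 11.06 and 11.11, and 11.08 and 11.49. Both genes overlapped Sham at both times, with log2 ratios of -0.09 to 0.12. Eif4a3, the helicase of this family found in the exon junction complex, read 6.66 and 6.24 in Sham, 6.31 and 6.37 at 1 W TAC and 6.50 and 6.32 at 4 W TAC, inside the Sham range throughout. The helicase cofactors Eif4b and Eif4h and the eIF4E transporter Eif4enif1 had log2 ratios between -0.15 and 0.02 after 1 week and between -0.02 and 0.15 after 4 weeks. In all, 8 of the 10 cap complex genes had a negative log2 ratio at 1 W TAC (median -0.11) and 5 of 10 at 4 W TAC (median 0.02), with 0 past the adjusted threshold. Without Sham replicate 1, which read above Sham replicate 2 for all 10 genes, 3 were negative after 1 week and 0 after 4 weeks, and without Sham replicate 2 all 10 were negative after 1 week and 8 after 4 weeks.

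**Figure D2:**
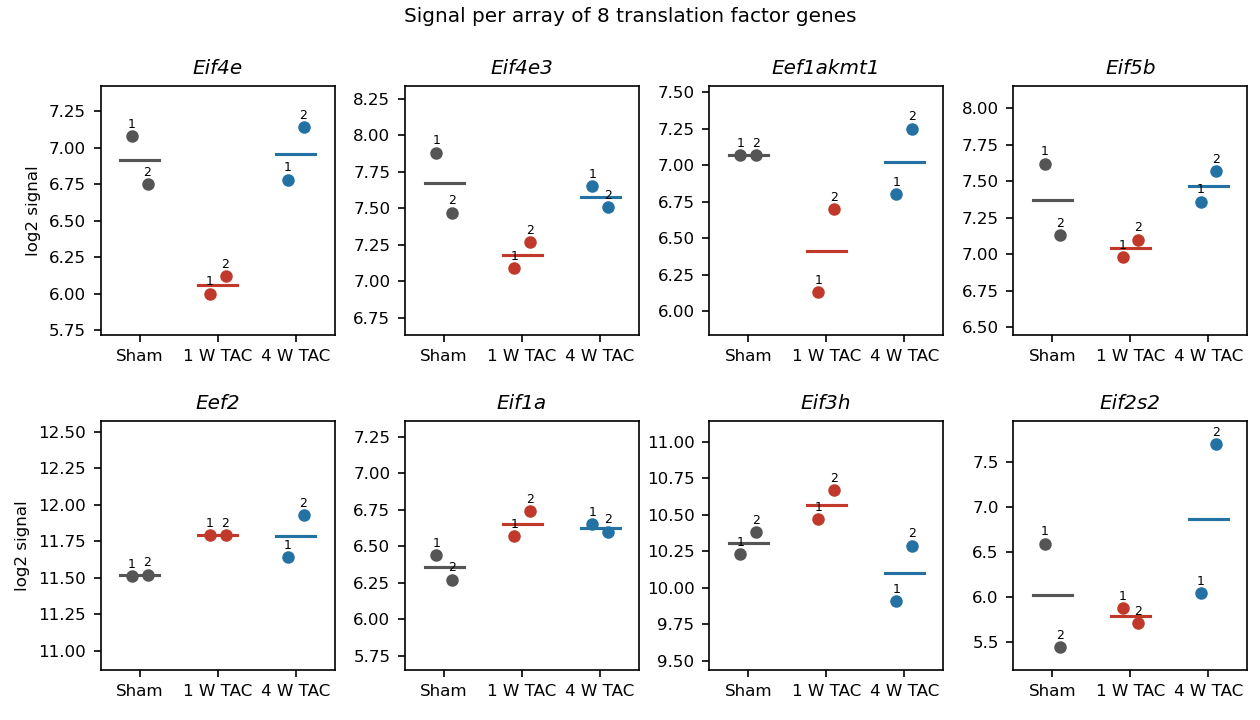
Log2 signal (vertical axis) of 8 translation factor genes in Sham, 1 W TAC and 4 W TAC; points are single arrays numbered by replicate and lines are means of 2 arrays, on axes that differ in their range between panels. In Eif4e, Eif4e3, Eef1akmt1 and Eif5b the 1 W TAC points are the lowest, in Eef2 and Eif1a both TAC groups lie above Sham, and in Eif2s2 the arrays of one group lie far apart.

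RefSeq start sites on mouse build GRCm38.p6 were matched for 35 of the 43 members, each with the window of 250 bases before to 50 bases after the start. The letters CACGTG, the E-box that dimers of Myc with Max bind and which reads the same on both strands, occurred in the windows of 10 of the 35 (28.6%), namely Eef1aknmt, Eef2, Eef2k, Eif1b, Eif3a, Eif3f, Eif3k, Eif4e, Eif4h and Eif5a2. The share was 10.2% of the 11869 measured genes in the same table and 8.1% of all its 27025 genes. The search for these letters was not among the sequence features fixed beforehand, and the difference between the shares was not tested. The windows of 4 genes whose array values are given in full are shown, 30 bases each, with the E-box in capitals. They lie in the plus strand at chr3:138527028-138527057 for Eif4e (the first of 2 copies, 228 bases before the second of 2 listed starts), chr10:81176576-81176605 for Eef2 (43 bases before the start), chr7:120842788-120842817 for Eef2k (31 bases before the first of several listed starts, the only start with a match) and chr3:28781123-28781152 for Eif5a2 (the first of 2 copies, 142 bases before).
Eif4e: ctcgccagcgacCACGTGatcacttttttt
Eef2: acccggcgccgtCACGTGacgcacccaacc
Eef2k: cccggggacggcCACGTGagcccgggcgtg
Eif5a2: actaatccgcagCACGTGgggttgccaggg
A match describes these letters and is not a measured binding site. The members with and without the E-box had overlapping ranges of log2 ratios at 1 W TAC, from -0.86 to 0.28 with a median of -0.03 in the 10 and from -0.34 to 0.21 with a median of -0.11 in the other 25. At 4 W TAC the medians were 0.06 and 0.05. Myc itself read 5.70 and 5.85 in Sham, 6.85 and 7.71 at 1 W TAC and 6.42 and 6.19 at 4 W TAC, all TAC arrays above both Sham arrays, with a log2 ratio of 1.51 ± 0.31 at 1 W TAC (adjusted p = 0.199 in limma). A part of Myc in the values of the members was not tested. A C followed by at least 4 pyrimidines at the start, the beginning of mRNAs with a terminal oligopyrimidine tract, was found at the listed start of 1 of the 35 members (2.9%, against 2.8% of the measured genes). Only the bases right at the listed start were read. A tract beginning some bases away was not counted, so these shares do not tell how many members have such a tract.

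Among the genes of the ternary complex and start site selection, Eif1a and Eif2s2 differed most from Sham. Eif1a, whose product eIF1A promotes scanning, read 6.44 and 6.27 in Sham, 6.57 and 6.74 at 1 W TAC and 6.65 and 6.60 at 4 W TAC. All 4 TAC arrays lay above both Sham arrays, but the log2 ratios of 0.30 ± 0.17 and 0.27 ± 0.17 did not pass (adjusted p = 0.592 and 0.967). Eif2s2, the beta subunit of eIF2, had the widest spread of all members named here, with 6.59 and 5.44 in Sham, 5.87 and 5.71 at 1 W TAC and 6.04 and 7.70 at 4 W TAC. The highest value came from 4 W TAC replicate 2 alone, and the 4 W TAC and Sham arrays overlapped. Its log2 ratio of 0.86 ± 0.62 at 4 W TAC (adjusted p = 0.970) ranged from 0.03 to 1.69 when single arrays were left out, and its log2 ratio of -0.23 ± 0.62 at 1 W TAC turned to 0.35 without Sham replicate 1. The remaining 5 genes were Eif1b (a close copy of the start codon factor eIF1), Eif1ad, Eif2a, Eif2d and Eif5 (which activates the GTPase of eIF2). Their log2 ratios lay between -0.17 and 0.12 after 1 week and between -0.22 and 0.05 after 4 weeks.

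The exchange factor eIF2B, which reloads eIF2 with GTP and is blocked when eIF2 is phosphorylated, was represented by 4 of its subunits. All 4 had negative log2 ratios at 1 W TAC (-0.25 to -0.09) and 2 of 4 at 4 W TAC, with 0 past the threshold at both times. All 4 read higher in Sham replicate 1 than in replicate 2, and without Sham replicate 1 the negative ratios were 1 of 4 at both times. Without Sham replicate 2 they were 4 of 4 at both times, and at 4 W TAC also 1 of 4 without 4 W TAC replicate 1 and 4 of 4 without replicate 2. Eif2b2, its beta subunit, read 7.14 and 6.89 in Sham, 6.67 and 6.86 at 1 W TAC and 6.75 and 6.84 at 4 W TAC. All 4 TAC values lay below both Sham values, with log2 ratios of -0.25 ± 0.18 and -0.22 ± 0.18 (adjusted p = 0.708 and 0.971), which were -0.13 and -0.10 without Sham replicate 1.

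For eIF3, the large scaffold on the small ribosomal subunit, 10 subunits were measured. At each time 7 of 10 had a positive log2 ratio, with medians of 0.10 and 0.12 and 0 past the threshold. The counts rested on single arrays too, with 2 of 10 positive at 1 W TAC without 1 W TAC replicate 2, 4 without Sham replicate 2, and 3 positive at 4 W TAC without 4 W TAC replicate 2. Eif3h read 10.23 and 10.38 in Sham, 10.47 and 10.67 at 1 W TAC and 9.91 and 10.29 at 4 W TAC, so that it stood above Sham without overlap at 1 W TAC and overlapped Sham at 4 W TAC. The log2 ratios were 0.27 ± 0.20 (adjusted p = 0.732; 0.17 without 1 W TAC replicate 2) and -0.21 ± 0.20 (adjusted p = 0.980). Eif3b, one of the core subunits, read 9.51 and 9.46, 9.46 and 9.71, and 9.66 and 9.78 in the same order, and was the only subunit of eIF3 above Sham without overlap at 4 W TAC (0.24 ± 0.17, adjusted p = 0.970). Eif3c read 9.17 and 9.06, 9.09 and 9.23, and 9.15 and 9.55, with overlap at both times, and its log2 ratio of 0.24 ± 0.20 at 4 W TAC was 0.04 without 4 W TAC replicate 2. The extreme values of Eif3l and Eif3i came from single arrays of 4 W TAC. Eif3l read 7.75 and 7.34 in Sham, 7.53 and 7.97 at 1 W TAC and 7.51 and 8.17 at 4 W TAC (log2 ratio 0.30 ± 0.31 at 4 W TAC, which was -0.04 without 4 W TAC replicate 2). Eif3i read 8.06 and 8.11, 7.83 and 8.13, and 7.54 and 8.06 (-0.29 ± 0.23 at 4 W TAC, -0.03 without 4 W TAC replicate 1). The other 5 subunits had log2 ratios from -0.17 to 0.21 after 1 week and from -0.19 to 0.22 after 4 weeks.

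Of the genes acting at subunit joining and on stalling peptide bonds, Eif5b and Eif5a2 were measured. Eif5b, the GTPase that joins the large subunit, read 7.62 and 7.13 in Sham, 6.98 and 7.10 at 1 W TAC and 7.36 and 7.57 at 4 W TAC. The 1 W TAC arrays were the lowest, just below Sham replicate 2, with a log2 ratio of -0.34 ± 0.22 (adjusted p = 0.669) that was -0.09 without Sham replicate 1 and -0.58 without Sham replicate 2, and the 4 W TAC arrays lay inside the Sham range. Eif5a2, the second gene of the hypusine-bearing factor eIF5A, read 5.68 and 5.81 in Sham, 5.86 and 6.10 at 1 W TAC and 5.97 and 6.05 at 4 W TAC. All TAC arrays lay above Sham in this dim row, with log2 ratios of 0.24 ± 0.17 and 0.27 ± 0.17 (adjusted p = 0.718 and 0.968), the former 0.12 without 1 W TAC replicate 2.

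In elongation, Eef2 stood above Sham at both times. Eef2, whose product moves the ribosome by 1 codon, read 11.51 and 11.52 in Sham, 11.79 and 11.79 at 1 W TAC and 11.64 and 11.93 at 4 W TAC. Every TAC array exceeded both Sham arrays, which were nearly equal, and the log2 ratios were 0.28 ± 0.17 (1.21-fold, adjusted p = 0.648) and 0.27 ± 0.17 (1.206-fold, adjusted p = 0.968), the latter 0.13 without 4 W TAC replicate 2 and 0.42 without replicate 1. Eef2k, the kinase that phosphorylates and inactivates eEF2, read 7.36 and 7.07 in Sham, 7.15 and 7.14 at 1 W TAC and 7.14 and 7.43 at 4 W TAC, overlapping Sham at both times (-0.07 ± 0.19 and 0.07 ± 0.19). Eef1a2, the form of eEF1A found in muscle and neurons, read 11.74 and 11.67 in Sham, 11.65 and 11.51 at 1 W TAC and 11.72 and 11.83 at 4 W TAC. The 1 W TAC arrays lay just below Sham, with a log2 ratio of -0.13 ± 0.16 (adjusted p = 0.869), and the 4 W TAC arrays overlapped Sham (0.07 ± 0.16). Eef1b2 and Eef1d, subunits of the exchange factor for eEF1A, had log2 ratios of 0.15 and 0.21 after 1 week and 0.02 and 0.06 after 4 weeks.

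The enzymes that modify elongation factors included the second largest difference at 1 W TAC. Eef1akmt1, a lysine methyltransferase of eEF1A, read 7.07 and 7.07 in Sham, 6.13 and 6.70 at 1 W TAC and 6.80 and 7.25 at 4 W TAC. The 1 W TAC arrays lay below all others and apart from each other, and the 4 W TAC arrays lay on both sides of Sham. The log2 ratio was -0.66 ± 0.26 at 1 W TAC (unadjusted p = 0.0492, adjusted p = 0.438; -0.37 without 1 W TAC replicate 1) and -0.05 ± 0.26 at 4 W TAC (adjusted p = 0.995). Eef1akmt2, a second methyltransferase of eEF1A in a dim row, read 5.47 and 5.29, 5.21 and 5.32, and 4.75 and 5.40, and its log2 ratio of -0.31 ± 0.25 at 4 W TAC turned to 0.02 without 4 W TAC replicate 1. Eef1e1, which bears the elongation factor name but belongs to the complex of aminoacyl-tRNA synthetases, read 8.52 and 8.51 in Sham, 8.18 and 8.54 at 1 W TAC and 8.39 and 7.89 at 4 W TAC. Both 4 W TAC values lay below Sham (-0.38 ± 0.24, adjusted p = 0.967), with a log2 ratio of -0.13 without 4 W TAC replicate 2 and -0.63 without replicate 1. The methyltransferases Eef1aknmt of eEF1A and Eef2kmt of eEF2 had log2 ratios from -0.09 to 0.08 at both times.

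**Figure D3:**
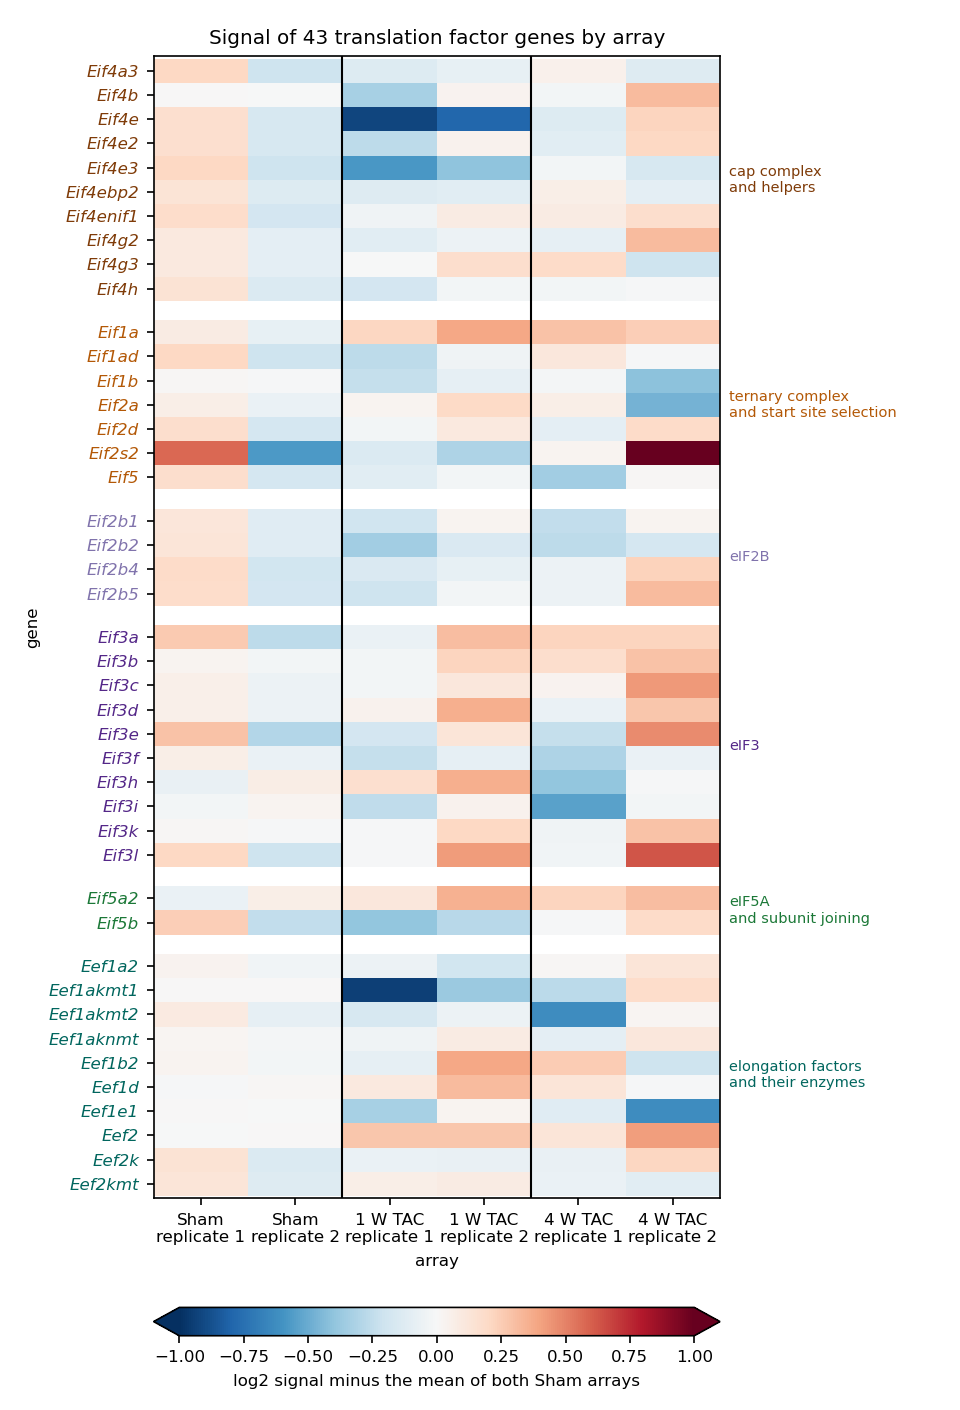
Log2 signal of the 43 translation factor genes (rows, coloured by role) on each of the 6 arrays (columns), minus the mean of both Sham arrays; red is higher, blue is lower and the scale ends at 1 in either direction. Sham replicate 1 is red and Sham replicate 2 blue for 37 genes, and within 1 W TAC and 4 W TAC the second column is redder than the first for 39 and 30 genes.

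Within each group most members were higher in the same mouse, and so were most genes with a mean signal of at least 6. Sham replicate 1 exceeded Sham replicate 2 in 37 of 43 members (86%), 1 W TAC replicate 2 exceeded replicate 1 in 39 (90.7%) and 4 W TAC replicate 2 exceeded replicate 1 in 30 (69.8%). The medians of these differences were 0.20, 0.17 and 0.24, which is more than the median log2 ratio of either TAC group. Over all genes the same arrays were the higher ones in 58.9%, 62.6% and 56.3%, and over the 7276 genes with a mean signal of at least 6 in 78.3%, 75.5% and 67.8%. All 10 cap complex genes and all 10 subunits of eIF3 were higher in 1 W TAC replicate 2 than in replicate 1. The highest of the 6 values came from 4 W TAC replicate 2 in 18 members and from Sham replicate 1 in 14, ties included, and the lowest from Sham replicate 2 in 14 and from 1 W TAC replicate 1 in 12. Sham replicate 1 was also one of the 2 arrays with a high Ucp1 signal, and the other, 4 W TAC replicate 1, was the lower array of its group for most members. Of the other adipocyte markers, Adipoq read 5.27 and 5.29 on these 2 arrays against 3.53 to 3.91 on the rest, while Cidea lay between 6.85 and 7.50 and Plin1 between 6.19 and 6.67 over the 6 arrays. Their part in these differences was not tested. Without Sham replicate 1, the log2 ratios at 1 W TAC, then taken against 1 Sham array, were -0.69 for Eif4e, -0.29 for Eif4e3, -0.13 for Eif2b2, -0.09 for Eif5b and 0.35 for Eif2s2.

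**Figure D4:**
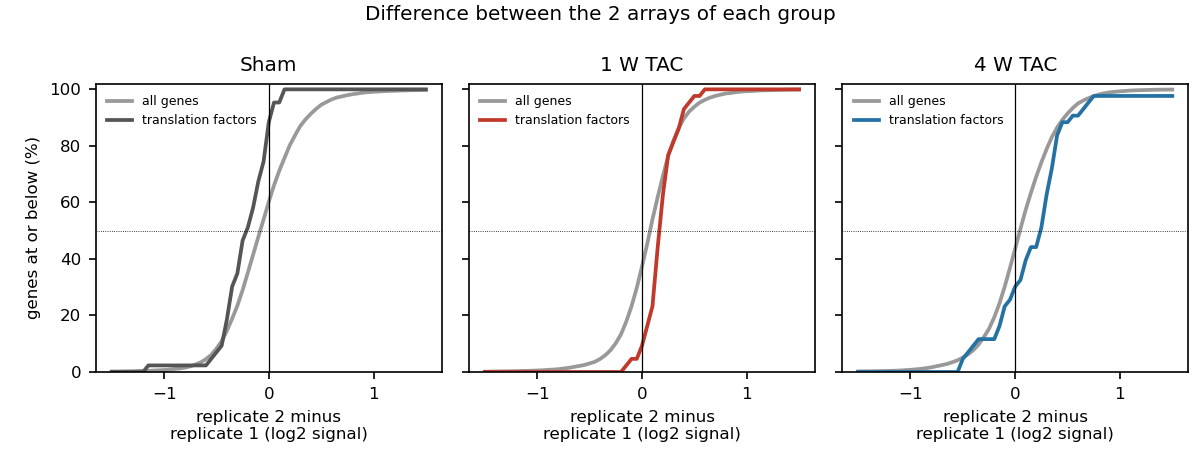
Cumulative share of genes (vertical axis, percent) by the difference of replicate 2 minus replicate 1 in log2 signal (horizontal axis), for the 43 translation factors (coloured) and for all genes (grey), in Sham, 1 W TAC and 4 W TAC. In Sham the coloured curve lies to the left of 0 for 86% of members, and at 1 W TAC and 4 W TAC to the right of 0 for 90.7% and 69.8%. For the 7276 genes with a mean signal of at least 6, not drawn here, these shares were 78.3%, 75.5% and 67.8%.

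Eif4e, Eef1akmt1, Eif4e3 and Eif5b, the members with the lowest log2 ratios at 1 W TAC, read higher in the mice of 4 W TAC than in those of 1 W TAC. The next lowest, Eif2b2, differed little between these mice (log2 ratio 0.03 ± 0.18). No mouse was followed over time. These values share the 1 W TAC arrays with the comparison against Sham and are no separate evidence of a low value at 1 W TAC. The log2 ratio of 4 W TAC against 1 W TAC was 0.90 ± 0.21 for Eif4e (unadjusted p = 0.0061, adjusted p = 0.616), 0.61 ± 0.26 for Eef1akmt1 (adjusted p = 0.782), 0.43 ± 0.22 for Eif5b (adjusted p = 0.826) and 0.40 ± 0.21 for Eif4e3 (adjusted p = 0.823). Eif2s2 had the largest value, 1.08 ± 0.62 (adjusted p = 0.858), with its wide spread, and Eif3h the most negative, -0.47 ± 0.20 (adjusted p = 0.782). At an unadjusted limma p under 0.05, 1 member was higher and 0 were lower, beside 2.46% and 3.33% of all genes, and 0 passed the adjusted threshold. Without overlap, 9 members (20.9%) lay above 1 W TAC and 2 (4.65%) below, beside 20.3% and 16.6% of all genes.

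Genes that act around the factors were read as lists, without a test of the list. Their counts of signs moved with single arrays as those of the members did, but less so for the mitochondrial translation factors at 1 W TAC. None of their genes passed the adjusted threshold in limma. Of 14 measured genes of the eIF2 kinases and the integrated stress response, 9 had a positive log2 ratio at 1 W TAC and 10 at 4 W TAC (medians 0.13 and 0.10). At 1 W TAC the count was 7 without Sham replicate 2 or without 1 W TAC replicate 2, and 12 without Sham replicate 1. At 4 W TAC it was 6 without 4 W TAC replicate 2. In this list 0 genes reached an unadjusted limma p under 0.05 at either time. Eif2ak3, the kinase PERK of the endoplasmic reticulum, read 6.47 and 6.18 in Sham, 6.63 and 6.82 at 1 W TAC and 6.38 and 6.87 at 4 W TAC (log2 ratio 0.40 ± 0.23 at 1 W TAC, adjusted p = 0.613). Atf4, the transcription factor translated when eIF2 is phosphorylated, read 7.52 and 7.40, 7.65 and 7.75, and 7.34 and 7.19, above Sham at 1 W TAC (0.24 ± 0.16, adjusted p = 0.685) and below it at 4 W TAC (-0.20 ± 0.16, adjusted p = 0.972), in both cases without overlap. Its target Chac1 had log2 ratios of 0.33 ± 0.18 and 0.25 ± 0.18 at the 2 times (adjusted p = 0.577 and 0.97 in limma). Asns of the same list had -0.17 ± 0.31 and 0.25 ± 0.31. Of 19 genes of mTOR and MAP kinase control of translation, 5 had a positive log2 ratio at 1 W TAC and 15 at 4 W TAC (medians -0.07 and 0.09). Without Sham replicate 1 the count at 1 W TAC was 14, and without Sham replicate 2 that at 4 W TAC was 8. At an unadjusted limma p under 0.05, 1 gene of this list was lower at 4 W TAC, beside 1.39% of all genes. This was Larp4, a dim row with 4.07 and 4.25 in Sham and 3.18 and 3.78 at 4 W TAC (-0.68 ± 0.24, adjusted p = 0.836). Mtor read 7.81 and 7.61 in Sham, 7.46 and 7.55 at 1 W TAC and 7.83 and 7.91 at 4 W TAC (-0.21 ± 0.17 and 0.16 ± 0.17), and Ddit4, an inhibitor of mTORC1, had a log2 ratio of 0.40 ± 0.24 at 1 W TAC and Pdcd4, an inhibitor of eIF4A, one of -0.32 ± 0.34. Pdcd4 read 6.79 and 6.08 in Sham and 6.04 and 6.19 at 1 W TAC, so its negative sign rested on Sham replicate 1.

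The poly(A)-binding protein gene had the largest positive difference of these lists next to Myc. Pabpc1, whose product bridges the mRNA tail to eIF4G, read 10.21 and 10.33 in Sham, 10.99 and 11.21 at 1 W TAC and 10.63 and 10.66 at 4 W TAC. All TAC arrays lay above Sham and the 1 W TAC arrays above those of 4 W TAC, with log2 ratios of 0.83 ± 0.17 (adjusted p = 0.199) and 0.38 ± 0.17 (adjusted p = 0.911). It stood apart from its list of poly(A)-binding and cap-linked partners, where 10 of 12 genes had negative log2 ratios at 1 W TAC (median -0.11; 6 of 12 without Sham replicate 1), among them Mcts1 with -0.47 ± 0.30. Of 11 genes of termination, recycling and ribosome rescue, 8 had a negative log2 ratio at 1 W TAC and 1 at 4 W TAC, within -0.27 to 0.40, but 8 also at 4 W TAC without 4 W TAC replicate 2 and 5 at 1 W TAC without 1 W TAC replicate 1. In this list Hbs1l and Nemf, both of ribosome rescue, had the largest ratios at 1 W TAC (-0.27 ± 0.30 and -0.26 ± 0.21), and the release factor gene Etf1 read 8.80 and 8.39 in Sham, 8.35 and 8.65 at 1 W TAC and 8.52 and 8.96 at 4 W TAC.

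The mitochondrial translation factors were the list with the lowest median. All 11 measured genes had a negative log2 ratio at 1 W TAC (median -0.34) and 8 of 11 at 4 W TAC (median -0.13), with 3 and 1 genes lower at an unadjusted p under 0.05, beside 4.87% and 1.39% of all genes, and 7 and 5 genes below Sham without overlap, beside 20.4% and 12.9%. Without Sham replicate 1 the medians were -0.18 and 0.03, with 8 and 5 of 11 genes negative. At 1 W TAC all 11 stayed negative without Sham replicate 2 and without either 1 W TAC array. The release factor gene Mtrf1l read 6.94 and 6.39 in Sham, 5.77 and 5.84 at 1 W TAC and 6.04 and 6.16 at 4 W TAC (-0.86 ± 0.23 and -0.57 ± 0.23, adjusted p = 0.268 and 0.872; -0.59 and -0.29 without Sham replicate 1). The initiation factor gene Mtif2 read 7.78 and 7.21, 6.69 and 6.86, and 7.15 and 7.42 (-0.72 ± 0.25 at 1 W TAC, adjusted p = 0.360; -0.44 without Sham replicate 1). Tufm, the mitochondrial elongation factor Tu, was dim and uneven at 4.84 and 2.71 in Sham, 3.54 and 2.66 at 1 W TAC and 4.05 and 4.06 at 4 W TAC. The 18 genes of the list of cytosolic aminoacyl-tRNA synthetases, which also held Aimp1 and Aimp2 of the synthetase complex, had medians of -0.01 and 0.07. Farsb (-0.33 ± 0.16) and Kars (-0.28 ± 0.20) were lowest at 1 W TAC. The 9 modifying enzymes and special elongation factors had medians of -0.09 and 0.07, with Sephs2 at -0.31 ± 0.18 and Dph7 at -0.22 ± 0.24 at 1 W TAC. The negative sign of Dph7 rested on Sham replicate 1, with 5.95 and 5.38 in Sham and 5.33 and 5.57 at 1 W TAC. The 21 genes of ribosome biogenesis and rRNA synthesis had medians of -0.03 and 0.06, and beside Myc the largest ratio was that of Nop10, a protein of small nucleolar RNPs, at -0.46 ± 0.18.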

How the data were processed

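Total RNA of left ventricles, extracted with Trizol by the labels and with a fibrous tissue column kit by the study's methods, was hybridised to Affymetrix GeneChip Mouse Exon 1.0 ST arrays. The deposited log2 values came from the authors' RMA in Affymetrix Expression Console (version and annotation build not given in the sources used here), which corrects background, normalizes quantiles and summarizes probes to 1 log2 signal per gene. RMA tends to compress ratios of dim rows. No detection calls were used here, and the number of arrays limits the precision. The labels name no batch.

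Rows (23332) were joined to symbols by the platform annotation, with 1 symbol for 14996, several for 1019 and none for 7317. One mean per group was fitted to all 6 arrays in R 4.3.3 with limma 3.58.1 (lmFit, eBayes defaults, 3 residual and 2.68 prior degrees of freedom), with Benjamini-Hochberg adjustment over all rows and a threshold of 0.05. The code was tested on simulated data. The p values rest on the spread between the 2 mice of a group, pooled over the 3 groups and moderated over all rows. A gene therefore has the same standard error in all 3 comparisons, whatever the spread in the groups compared. An exact permutation test of 2 against 2 arrays cannot go below 0.333 (two-sided) and was not used. The members and gene lists were chosen with earlier results of these data known. Array values are given for the 10 members with the largest ratio in each comparison with Sham, the 6 with the largest for 4 W TAC against 1 W TAC, and fixed paralogue sets. Of each other list the 2 genes with the largest ratio at 1 W TAC are named, with Eif2ak3, Atf4, Mtor, Pabpc1, Etf1, Tufm and Myc. Asns and Larp4 are named in addition, after their values were seen. Promoter windows are from RefSeq (GRCm38.p6). Protein sequences were not used here. Markers of atrial myocytes, endothelium, smooth muscle, lymphocytes, neutrophils and erythroid cells were also read. Their median log2 ratios at 1 W TAC were -0.42, -0.10, -0.09, 0.39, 0.10 and -1.39. The last value is that of Alas2 alone, the 1 measured of 3 listed erythroid markers, and 3 of 4 atrial markers were measured. Lymphocyte and neutrophil markers were dim, with median signals of 3.37 to 4.08 and 2.41 to 2.76 on the 6 arrays. Alternatives were a replicate block, each array left out, fits of 2 groups, fewer rows, other moderation, normalization and centring, all rows of a gene averaged, and a 2-group equal-spread test at the fold and p threshold that the study gives for splicing factors, not for all genes.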

Additional observations from a re-analysis of the deposited data

How the results depend on the processing

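No member passed an adjusted p under 0.05 in limma under any alternative, and the lowest adjusted p of a member was 0.0616, reached at 1 W TAC when rows with a mean signal under 6 were left out before the fit. That filter raised the rows past the threshold at 1 W TAC from 1 to 331, testing only rows with 1 symbol raised them to 268, and robust moderation with trend to 14. Many alternatives (the block, the moderation, the rows tested, the groups in the fit) cannot move a log2 ratio, so only changes are given. Among the members with the largest ratios in each comparison the direction reversed for the log2 ratio of Eif2s2 at 1 W TAC (-0.80 to 0.35 over the arrays left out, 0.35 without Sham replicate 1, also when 4 W TAC replicate 1 was left out with it), that of Eif3l at 4 W TAC (-0.035 to 0.625, the former without 4 W TAC replicate 2) and that of Eef1akmt2 at 4 W TAC (-0.63 to 0.02, the latter without 4 W TAC replicate 1, 0.11 without it and Sham replicate 1). The cause was not tested. Leaving out single arrays gave 1 to 3 members with an unadjusted p under 0.05 at 1 W TAC, 0 to 1 at 4 W TAC and 1 to 4 for 4 W TAC against 1 W TAC, 0 past the adjusted threshold, and medians of -0.165 to 0.075, -0.105 to 0.175 and -0.045 to 0.135. With Sham replicate 1 and 4 W TAC replicate 1 left out together, chosen after seeing their Ucp1 signal, these counts were 1, 1 and 2, and the median at 1 W TAC was 0.075. For 4 W TAC against 1 W TAC the count was 2 with robust moderation or centred arrays, and 3 with rows of 1 symbol, bright rows or quantile normalization. The study's fold and p threshold for splicing factors was passed by 1 member at 1 W TAC and 1 for 4 W TAC against 1 W TAC, beside 829 and 355 of 23332 rows.

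Replicates share only a number. The correlations of the differences between replicates were -0.148, -0.171 and 0.084 between the groups. With the replicate block, 0 members passed, and the counts at an unadjusted p under 0.05 were 2, 0 and 2. A crossed block, chosen after seeing the data, gave 1 at 4 W TAC. With 2 arrays per group a ratio of the size of most members could not be told from the spread between mice.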
